A study of Homo sapiens with 2 samples.

Results

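Cells of the human ovarian carcinoma line OVCAR5 were compared between 5 hashed samples whose expression resembles exposure to interferon gamma (IFN-gamma) with tumour necrosis factor (TNF) and 5 hashed samples whose expression resembles no stimulation. They make up 10 of the 15 hashed samples of the series and hold 1867 of its 3538 kept cells, 919 on the first side and 948 on the second. A hashed sample is the set of cells that carry the same pair of hashtags, which are antibody-borne barcodes added before the cells were pooled. Kept cells are those with 1000 or more detected genes and a mitochondrial share of counts no higher than 20%. A cell was placed in the pair of its top hashtags if the second of them reached 10 counts and 3 times the next one. The both-cytokine-like side consists of HTO2+HTO7, HTO3+HTO6, HTO3+HTO9, HTO4+HTO6 and HTO4+HTO9. The unstimulated-like side consists of HTO2+HTO5, HTO2+HTO8, HTO3+HTO7, HTO4+HTO7 and HTO4+HTO10. Values per sample are given in these orders throughout.

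No label ties a hashtag to a treatment, so the names of the sides are inferred from the expression of these same cells. Every gene in the contrast was therefore open to that choice, and all values below are descriptions with no test. Per the labels, tumours of an OVCAR5 line with an IFN-gamma-sensing reporter were grown in NSG-b2m-/- mice and digested, and the cells were exposed to cytokines ex vivo for 6 h. The labels list 5 unstimulated entries, 5 with 10 ng/ml TNF and 5 with 100 ng/ml IFN-gamma plus 10 ng/ml TNF, all from a pool of 5 tumours. Only cells positive for cyan fluorescent protein (CFP), called bystander cells in the labels, were sorted from the pool. The sources used here do not tell which hashed samples share a tumour or whether the reporter line is a single clone. The remaining 5 hashed samples, with 1277 cells, lay on neither side and are used only for position.

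IFN-gamma activates JAK kinases and STAT transcription factors, and TNF activates NF-kB. Both are known for the genes they switch on, such as chemokines and antigen presentation genes. In epithelial tumour cells the same cytokines are also known to slow growth, and IFN-gamma can sensitise cells to death. The genes of interest here are those that were lower, and those that were higher without belonging to a list of interferon or NF-kB targets. These lists are selections and not complete, so a gene outside them can still be a target of either cytokine.

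The markers given with the samples separated the sides. Levels are counts of unique molecular identifiers (UMIs, each a counted RNA molecule) per 10000 UMIs of the hashed sample. CXCL11, a chemokine that draws T cells, lay at 15.5, 15.6, 5.84, 12.6 and 14.1 in the both-cytokine-like samples and at 0.155, 0.0214, 0.01102, 0.0237 and 0.0354 in the unstimulated-like samples. CD274, which encodes PD-L1, lay at 2.13, 1.82, 2.03, 2.07 and 1.897 and at 0.0258, 0.0107, 0.02204, 0.0119 and 0.0206. The sides did not overlap for either gene. The sample HTO3+HTO9 had the lowest CXCL11 of its side and HTO2+HTO5 the highest of the other. BMP4, the marker in the other direction, is described first among the lower genes. At the edge of the choice, the summed level of the interferon list was 649 to 904 in the both-cytokine-like samples, and the highest of the remaining samples reached 365. The NF-kB list was 105 to 119 in the unstimulated-like samples, and the lowest of the remaining samples stood at 203.

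The CD274 promoter is shown because its gene marks the side. The capitals are a match to the core of the interferon-stimulated response element (GAAA, any 2 bases and GAAA, on either strand), in RefSeq sequence of GRCh38.p14 at chr9:5450309-5450368, plus strand.
CD274: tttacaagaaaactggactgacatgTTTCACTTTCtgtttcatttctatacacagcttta

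The hashed samples on the sides held 53 to 347 cells and 648694 to 4320202 UMIs. Median depth per cell overlapped between the sides, at 10952 to 11881 UMIs in the both-cytokine-like samples and 10942 to 12369 in the others. Median detected genes per cell did not overlap, at 3022 to 3191 against 3226 to 3431. Median mitochondrial shares were 12.2% to 13.6% and 12.9% to 14.7%. Cells with a summed level of S phase and mitosis genes of at least 20, called cycling here, made up 0% to 9.38% of the both-cytokine-like samples and 7.04% to 16.1% of the unstimulated-like samples. In HTO3+HTO9 they were 0 of 53 cells, which allows a share of up to 5.66%. The samples of under 100 cells were HTO3+HTO9, HTO4+HTO9 and HTO3+HTO7. Of 13 epithelial markers all had counts. EPCAM, an epithelial adhesion molecule, lay at 3.87 to 4.61 and 3.92 to 4.71, while 6 of the 10 tested epithelial markers were lower on the both-cytokine-like side, as described with the keratins. B cell, fibroblast, endothelial and erythroid lists had no member above the level filter. Their summed levels were at most 0.0644 on the first side and 0.0560 on the other. Of the T and NK cell markers only CD7 was above the filter, which is also on the interferon list, and 8 of the 12, among them CD3D, CD3E and NKG7, had no count. Myeloid markers summed to 0.375 to 0.657 and 0.386 to 0.652, with no count of FCGR3A. Mouse host cells were not measured.

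Of 7482 genes with a mean level of at least 0.1 over the 10 samples, 930 were called lower in the both-cytokine-like samples (12.4%) and 565 higher (7.55%). A call means that the 5 values of one side lay wholly beyond the 5 values of the other and that the side medians differed at least 1.5-fold. A gene can pass the level filter through its high side alone, so these counts are not counts of a fixed set. Counts of called members of each list below are to be read beside these shares of 12.4% and 7.55%. Among the 7176 genes on neither the interferon nor the NF-kB list, 923 were called lower (12.9%) and 340 higher (4.74%). A fall of at least 2-fold was seen in 347 genes and of at least 4-fold in 39. Outside the lists, 204 genes were at least 2-fold higher and 71 at least 4-fold higher.

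The split between lower and higher calls depends on the scale. Over all tested genes the median log2 ratio of side medians, both-cytokine-like over unstimulated-like, was -0.21, and 71.5% of the genes had a ratio below 1. With samples scaled by the median of gene ratios in place of the total, that median was 0.01, and the calls were 454 lower and 769 higher. Scaled to the total without mitochondrial and list genes, the median was -0.08, with 598 lower and 669 higher. Lower genes were thus 62.2% of calls on the main scale, 37.1% on the second and 47.2% on the third. Of the 25 genes with the strongest falls described below, 24 kept their call when scaled by the median of ratios and 25 on the third scale. FGFBP1 was the exception. All 20 of the strongest risers outside the lists kept theirs on both.

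**Figure D1:**
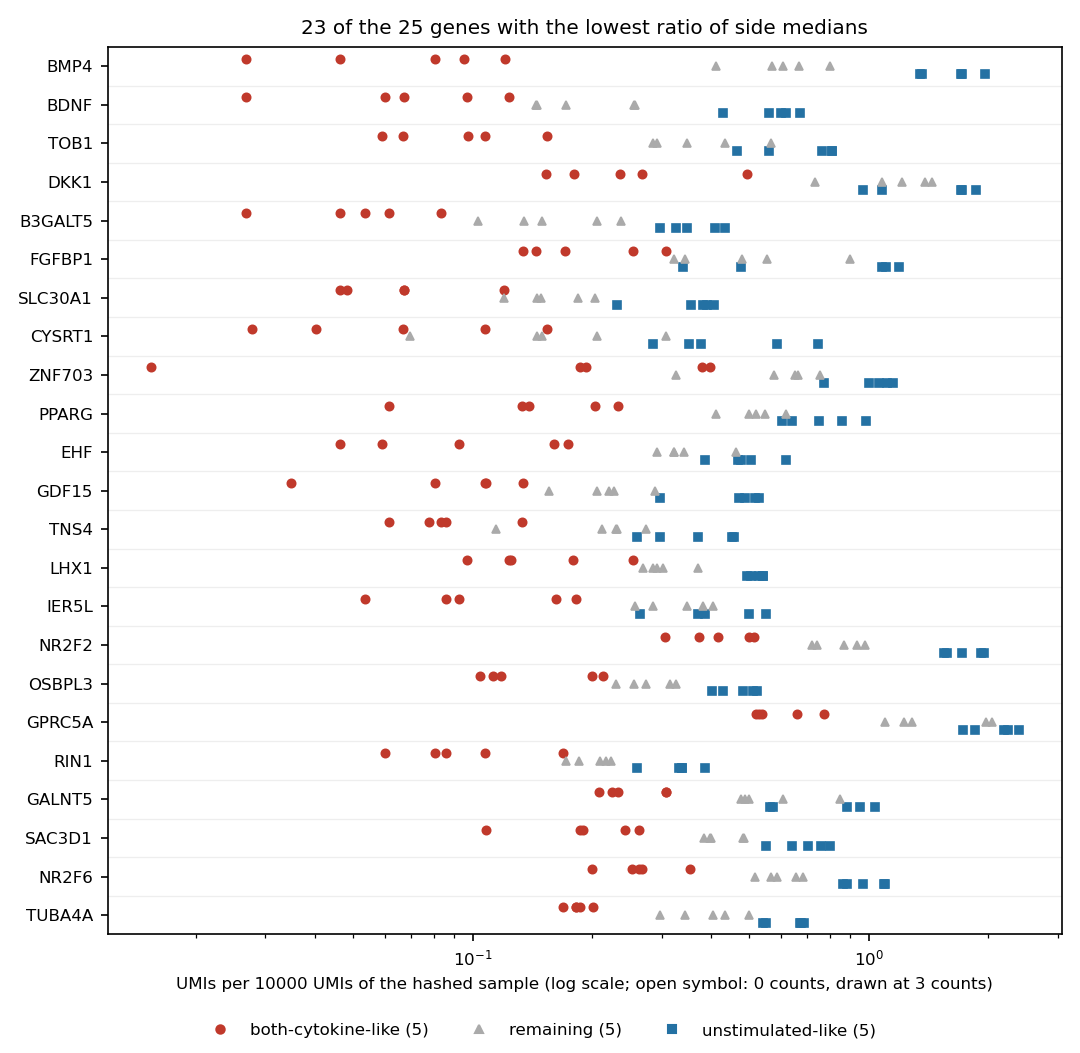
Level of 23 of the 25 most strongly lower genes in each of the 15 hashed samples, in UMIs per 10000 UMIs on a log axis. Points of the 5 both-cytokine-like samples (circles) lie left of those of the 5 unstimulated-like samples (squares) in every row, as the call requires, with the remaining 5 samples as triangles.

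The gene with the lowest ratio was BMP4 (chr14:53949736-53958761, minus strand, GRCh38, GENCODE 29), a secreted ligand that signals through SMAD proteins to the ID genes. It lay at 0.0949, 0.121, 0.0462, 0.0805 and 0.0267 in the both-cytokine-like samples and at 1.97, 1.35, 1.37, 1.73 and 1.71 in the unstimulated-like samples. These values rested on 2 to 45 UMIs per sample on the low side, and the exact 95% Poisson interval was 0.00324 to 0.0965 in HTO4+HTO9 and 0.0881 to 0.162 in HTO3+HTO6. Such intervals cover counting error only. The side medians differed 21.3-fold and the closest samples 11.1-fold. The remaining samples lay between, at 0.412 to 0.801.

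Response genes of the pathway were lower by less. ID2, an inhibitor of basic helix-loop-helix factors, stood at 0.319, 0.271, 0.231, 0.408 and 0.588 against 1.08, 1.496, 1.84, 1.12 and 0.793, a 3.51-fold difference of medians. ID1 lay at 2.05 to 2.69 against 3.94 to 4.42 and SMAD5, a transducer of the pathway, at 0.227 to 0.343 against 0.472 to 0.628. ID1 lost its call on both other scales, with log2 ratios of -0.48 and -0.54 beside -0.65, whereas ID2 and SMAD5 kept theirs. In barcodes over 20% mitochondrial UMIs, ID1 and SMAD5 were not called and ID2 was. ID3 was not called, since its ranges of 0.166 to 0.441 and 0.316 to 0.948 overlapped. Of the 12 tested members of the BMP and ID list, 4 were lower and 0 higher, with a median log2 ratio of -0.31 beside -0.21 for all genes. Over all tested genes 12.4% were lower and 7.55% higher. Scaled by the median of ratios the list had 3 lower and 2 higher members.

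Other secreted growth factors were also lower. BDNF (chr11:27654893-27722058, minus strand), a neurotrophin, lay at 0.0602, 0.0671, 0.123, 0.0966 and 0.0267 in the both-cytokine-like samples. In the unstimulated-like samples it lay at 0.617, 0.601, 0.562, 0.6703 and 0.428, so that the medians differed 8.95-fold with no overlap. TGFB2, a TGF-beta ligand, ranged over 0.0462 to 0.107 against 0.2401 to 0.419, a 4.03-fold difference. PDGFC, a ligand of platelet-derived growth factor receptors, ranged over 0.0802 to 0.131 against 0.231 to 0.386, or 3.43-fold. GDF15, a stress-induced cytokine of the TGF-beta superfamily, was 4.55-fold lower, at 0.0347, 0.107, 0.108, 0.134 and 0.0802 against 0.488, 0.472, 0.518, 0.297 and 0.528. Its unstimulated-like value in HTO4+HTO7 lay well under the other 4 of that side and still above every both-cytokine-like value. FGFBP1, a secreted carrier of fibroblast growth factors, varied most among the unstimulated-like samples, at 0.475, 1.08, 1.19, 1.103 and 0.339. Its both-cytokine-like values were 0.171, 0.145, 0.308, 0.134 and 0.254, so the highest of them came close to the lowest on the other side. Of the 16 tested growth factor ligands, 5 were lower and 0 higher, beside 12.4% and 7.55% over all tested genes. The list's median log2 ratio was -0.50.

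Of the WNT and NOTCH genes, regulators of WNT signalling were lower and a NOTCH ligand was higher. DKK1 (chr10:52314296-52318042, plus strand), a secreted antagonist that binds the WNT co-receptors, lay at 0.181, 0.153, 0.493, 0.236 and 0.267 against 1.08, 1.72, 1.86, 1.71 and 0.9704. HTO3+HTO9 had the highest DKK1 of its side and was still under every unstimulated-like sample. LGR4, a receptor for R-spondins that strengthens WNT signalling, was 4.25-fold lower (0.0462 to 0.0805 against 0.253 to 0.333). TCF7L2, the transcription factor that beta-catenin binds, was 2.79-fold lower (0.413 to 0.649 against 1.11 to 2.08). WNT7B, a WNT ligand, was the other lower member, 2.01-fold. JAG1, a NOTCH ligand, was 2.98-fold higher, at 1.01, 1.13, 0.725, 0.638 and 1.19 against 0.338, 0.359, 0.452, 0.3203 and 0.2802, and MAML2, a NOTCH coactivator, was 1.72-fold higher. In all, 4 of 10 tested members were lower and 2 higher, beside 12.4% and 7.55% over all tested genes. When scaled by the median of ratios, 3 members were lower and 2 higher.

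Transcription factors of epithelial and lineage identity were lower in 6 of 25 tested members and higher in 2, with a median log2 ratio of -0.61. Over all tested genes 12.4% were lower and 7.55% higher, and the count of higher members is near that share. EHF, an ETS factor of epithelia, lay at 0.0926, 0.161, 0.0462, 0.05901 and 0.174 against 0.467, 0.477, 0.386, 0.504 and 0.619, a 5.15-fold difference. NR2F2, an orphan nuclear receptor also called COUP-TFII, lay at 0.498, 0.513, 0.416, 0.306 and 0.374 against 1.72, 1.96, 1.55, 1.93 and 1.58, or 4.13-fold. Both sides of NR2F2 were narrow, and its closest samples still differed 3.03-fold. LHX1, a LIM-homeobox factor of the developing kidney and female tract, was 4.23-fold lower, with 0.493 to 0.542 in the unstimulated-like samples against 0.0966 to 0.254. GATA2, a zinc finger factor, fell 4.72-fold, but its low side rested on 1 to 26 UMIs per sample. ZNF703, a transcriptional repressor, was 5.499-fold lower, and its lowest value of 0.0154 came from a single UMI in HTO3+HTO9. The 2 members in the other direction were KLF6, a zinc finger factor at 1.83 to 3.33 against 0.736 to 1.25, and ZEB1, a repressor of epithelial genes at 0.478 to 0.668 against 0.219 to 0.302.

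Further regulators among the strongest falls were on no list of lineage factors. TOB1, an antiproliferative adaptor of mRNA deadenylation, lay at 0.0972, 0.107, 0.154, 0.05901 and 0.0668 against 0.764, 0.467, 0.562, 0.807 and 0.808, with medians 7.86-fold apart. PPARG, a nuclear receptor that controls lipid genes, lay at 0.139, 0.233, 0.0617, 0.204 and 0.134 against 0.857, 0.751, 0.606, 0.641 and 0.982, or 5.41-fold apart. NR2F6, a relative of NR2F2, was 3.68-fold lower, with 0.2004 to 0.355 against 0.863 to 1.1. For each of these 3 genes all remaining samples lay above every both-cytokine-like sample.

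Genes linked to the coactivators YAP and TAZ, which act on DNA through TEAD factors, were lower in 6 of 21 tested members and higher in 0. Over all tested genes 12.4% were lower and 7.55% higher. ANKRD1, a classical target, had 2, 7, 0, 5 and 1 UMIs in the both-cytokine-like samples. Its levels were 0.05899 to 0.297 in the unstimulated-like samples, so the 16.5-fold difference of medians rests on few molecules. ANKRD1 lost its call on both other scales, with log2 ratios of -3.90 and -3.92 beside -4.04, and in barcodes over 20% mitochondrial UMIs, with -0.82. WWTR1, which encodes TAZ, lay at 0.468, 0.598, 0.385, 0.617 and 0.508 against 1.48, 1.802, 1.34, 1.52 and 1.71, a 2.99-fold difference. TEAD1 lay at 0.518, 0.668, 0.37, 0.472 and 0.521 against 1.19, 1.05, 0.915, 1.16 and 1.19, or 2.24-fold. TGFB2 was the other strongly lower member, followed by FJX1 and PTPN14. CCN1 and CCN2, further well-known targets, were not called. CCN1 ranged over 0.0349 to 0.447 on one side and 0.155 to 0.6703 on the other, and CCN2 over 0.0926 to 0.216 and 0.201 to 0.558. The list's median log2 ratio was -0.54, and -0.34 when scaled by the median of ratios, with 5 members lower.

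The promoters of ANKRD1 and DKK1 are shown because both genes were called lower on the main scale and both hold the letters GGAATG, which TEAD factors are known to bind. The capitals mark these letters. The ANKRD1 stretches are at chr10:90921277-90921332, minus strand and chr10:90921185-90921240, minus strand, and the DKK1 stretch is at chr10:52314206-52314261, plus strand (RefSeq, GRCh38.p14).
ANKRD1, distal: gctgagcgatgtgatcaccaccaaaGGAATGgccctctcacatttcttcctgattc
ANKRD1, proximal: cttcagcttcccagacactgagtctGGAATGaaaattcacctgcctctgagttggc
DKK1: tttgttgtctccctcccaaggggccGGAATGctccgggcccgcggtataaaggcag

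Keratins, the intermediate filaments of epithelia, were lower in 6 of 8 tested members and higher in 1, with a median log2 ratio of -0.80. Shares over all tested genes were 12.4% lower and 7.55% higher. KRT19 lay at 5.59, 8.17, 7.399, 6.29 and 7.401 against 14.6, 16.3, 17.9, 19.8 and 19.8, a 2.42-fold difference of medians. KRT7 lay at 2.796, 2.71, 4.41, 2.45 and 3.62 against 6.88, 6.43, 8.85, 8.89 and 7.04, or 2.52-fold. KRT18 (15.1 to 19.4 against 26.5 to 35.1) and KRT8 (9.73 to 12.2 against 14.7 to 19.8), which pair in simple epithelia, were 1.75-fold and 1.54-fold lower. Both lost the call when scaled by the median of ratios, and KRT8 also when scaled without mitochondrial and list genes. KRT20 was 1.76-fold lower and KRT23 1.72-fold. KRT17, a keratin of stressed and basal epithelia, went the other way. It lay at 1.53, 1.55, 2.004, 1.66 and 2.14 against 0.266, 0.354, 0.419, 0.5101 and 0.186, 4.68-fold higher, and the remaining samples were at 0.0687 to 0.519. On the scale of the median of ratios 3 keratins were lower and 1 higher.

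**Figure D2:**
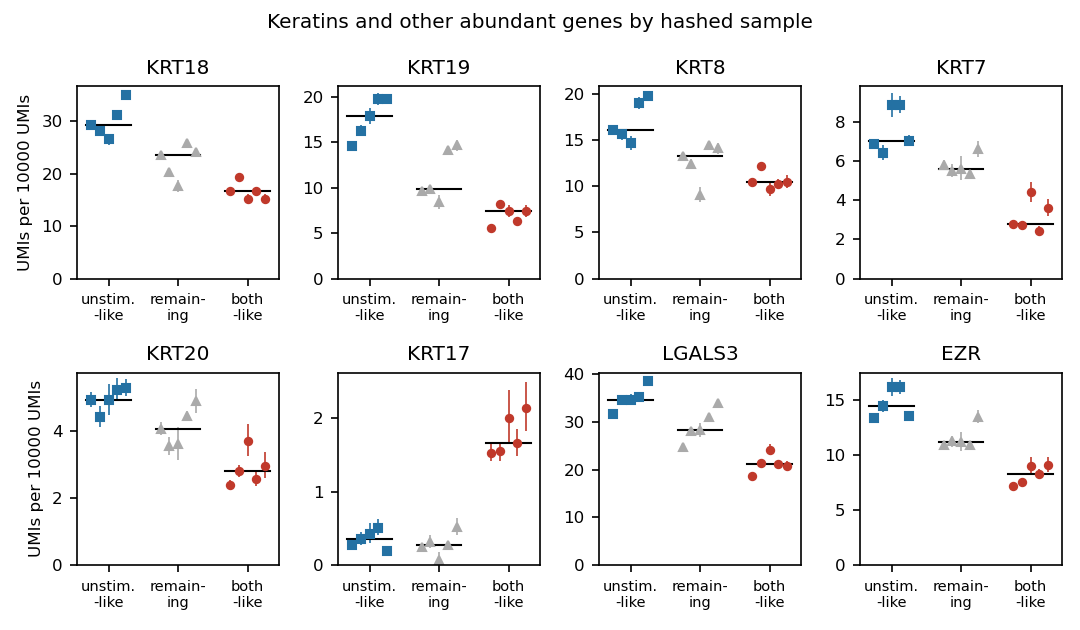
Level of 6 keratins, LGALS3 and EZR in each hashed sample, in UMIs per 10000 UMIs on linear axes that start at 0, with exact 95% Poisson intervals as bars and the side median as a line. KRT17 is high in the 5 both-cytokine-like samples, and the other 7 genes are low there.

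Among called genes, the 10 largest losses in absolute level were in abundant genes, 4 of them keratins. LGALS3, the lectin galectin-3, lay at 18.7, 21.3, 24.2, 21.1 and 20.7 against 31.7, 34.6, 34.7, 35.3 and 38.7, 1.65-fold lower. EZR, which links membrane to actin, lay at 7.196, 7.55, 9.003, 8.25 and 9.08 against 13.3, 14.4, 16.1, 16.1 and 13.5, 1.75-fold lower. FABP5, a fatty acid carrier, and ALDH1A3, a retinaldehyde dehydrogenase, were 1.64-fold and 1.67-fold lower. These 4 calls, and those of KRT18 and KRT8, were lost on the scale of the median of ratios, and those of FABP5 and KRT8 also on the third scale. AKAP12, a scaffold of protein kinase A, lay at 2.15 to 3.72 against 5.49 to 8.19, and DCBLD2, a transmembrane receptor, at 2.87 to 3.78 against 5.796 to 7.45. These 2 kept their calls on each scale, as KRT19 and KRT7 did.

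Of 30 tested junction and surface genes, 5 were lower and 1 higher, which is near the 12.4% and 7.55% over all tested genes. The list's median log2 ratio was -0.30, and 1 member was lower and 2 higher when scaled by the median of ratios. CLDN4, a tight junction claudin, lay at 0.331, 0.3703, 0.786, 0.542 and 0.802 against 1.24, 1.53, 1.94, 1.51 and 1.27, 2.79-fold lower. PARD3, a polarity scaffold, was 2.06-fold higher (0.447 to 0.748 against 0.231 to 0.342). PKP2, PKP3 and JUP, of the desmosome, were 1.56-fold, 1.53-fold and 1.52-fold lower.

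Several enzymes and transporters of the surface were among the strongest falls. B3GALT5, a galactosyltransferase of cell surface glycans, lay at 0.0463, 0.0832, 0.0617, 0.0536 and 0.0267 against 0.349, 0.327, 0.298, 0.433 and 0.41, or 6.497-fold. GALNT5, which starts mucin-type glycans, was 3.79-fold lower, with 0.208 to 0.308 against 0.563 to 1.04. SLC30A1, the zinc exporter of the plasma membrane, was 5.695-fold lower, at 0.0671, 0.0671, 0.0462, 0.0483 and 0.1202 against 0.382, 0.391, 0.231, 0.356 and 0.407. SLC39A8, a zinc importer, was 5.53-fold higher, at 0.384, 0.295, 0.277, 0.166 and 0.401 against 0.0361, 0.0643, 0.02204, 0.0534 and 0.05604. These were the 2 called members of the 18 tested genes of metal handling. With 1 lower and 1 higher, the list shows no excess beside 12.4% and 7.55% over all tested genes. SLC2A1, the glucose transporter GLUT1, was 2.46-fold lower (0.484 to 0.832 against 1.23 to 1.68).

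Single signalling genes were also lower. Of 6 tested EGF family genes, 1 was lower and 0 higher, and of 14 tested MAPK feedback genes 2 were lower and 2 higher. Shares over all tested genes were 12.4% lower and 7.55% higher, and these small counts show no clear excess. The median log2 ratios of these lists were -0.015 and -0.002, beside -0.21 for all genes. ERRFI1, a feedback inhibitor of the EGF receptor, lay at 0.222, 0.467, 0.493, 0.333 and 0.347 against 1.24, 1.08, 1.09, 0.961 and 2.63, 3.14-fold lower. HTO4+HTO10 had more ERRFI1 than the other 4 samples of its side. The EGF ligand AREG had medians of 4.66 and 15.8, but its ranges of 3.29 to 12.5 and 10.6 to 18.8 overlapped. GPRC5A, an orphan receptor induced by retinoic acid, lay at 0.5301, 0.773, 0.5395, 0.6598 and 0.521 against 1.73, 2.199, 1.85, 2.25 and 2.39, 4.07-fold lower. TNS4, a tensin of focal adhesions, and RIN1, an effector of RAS, were 4.44-fold and 3.94-fold lower. Of the MAPK feedback genes, the phosphatase DUSP4 and the RAS inhibitor SPRED1 were lower (2.14-fold and 2.06-fold), whereas the phosphatase DUSP6 and IER3 were higher (1.54-fold and 1.58-fold). On the scale of the median of ratios this list had 1 lower and 3 higher members. IER3 is also on the NF-kB list, and the remaining samples exceeded both sides for it, at 5.903 to 8.12. Others of the 25 strongest falls were CYSRT1, IER5L, OSBPL3, SAC3D1 and TUBA4A, each between 3.67-fold and 5.64-fold lower.

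Genes of DNA replication were lower in 8 of 17 tested members and higher in 0, with a median log2 ratio of -1.10. Shares over all tested genes were 12.4% lower and 7.55% higher. MCM6, a subunit of the replicative helicase, ranged over 0.0462 to 0.107 against 0.154 to 0.243, 3.32-fold lower. MCM4 lay at 0.218, 0.225, 0.277, 0.161 and 0.174 against 0.7203, 0.601, 0.529, 0.617 and 0.534, or 2.76-fold lower. GMNN, the licensing inhibitor geminin, and SLBP, the histone mRNA binding protein, were 2.79-fold and 2.39-fold lower. Mitosis genes were called in 0 of 20 tested members, and their summed level of 1.57 to 9.36 overlapped with 3.97 to 11.1. The share of cycling cells given above moved in the same direction as both lists. Cycling cells were set by the summed level of these same lists, so that agreement is no separate observation. Leaving cycling cells out likewise lowers the lists by construction. In the cells that were left, the replication list had a median log2 ratio of -1.09, with 5 members lower, and summed levels of 1.30 to 2.40 against 3.06 to 3.83. MCM4 and SLBP kept their calls there, with log2 ratios of -1.84 and -1.27. MCM6 and GMNN lost theirs, with log2 ratios of -1.37 and -1.51 beside -1.73 and -1.48 in all kept cells.

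Ribosome biogenesis genes were lower in 9 of 30 tested members and higher in 0, beside 12.4% and 7.55% over all tested genes. The list's median log2 ratio was -0.48. POLR1B, a core subunit of RNA polymerase I, ranged over 0.0668 to 0.153 against 0.239 to 0.365, 3.11-fold lower. UBTF, which recruits that polymerase to ribosomal DNA, lay at 0.315, 0.327, 0.432, 0.279 and 0.454 against 0.782, 0.713, 0.782, 0.913 and 0.773, or 2.39-fold lower. WDR12 and RRS1, which assemble the large subunit, were 2.702-fold and 2.24-fold lower. Summed over the list the sides overlapped, at 51.3 to 63.3 against 60.1 to 72.9. Cytosolic ribosomal protein genes had 0 called members of 83, and their median log2 ratio was -0.08, or 0.14 when scaled by the median of ratios. On the scale of the median of ratios 5 biogenesis genes were lower and 0 higher.

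**Figure D3:**
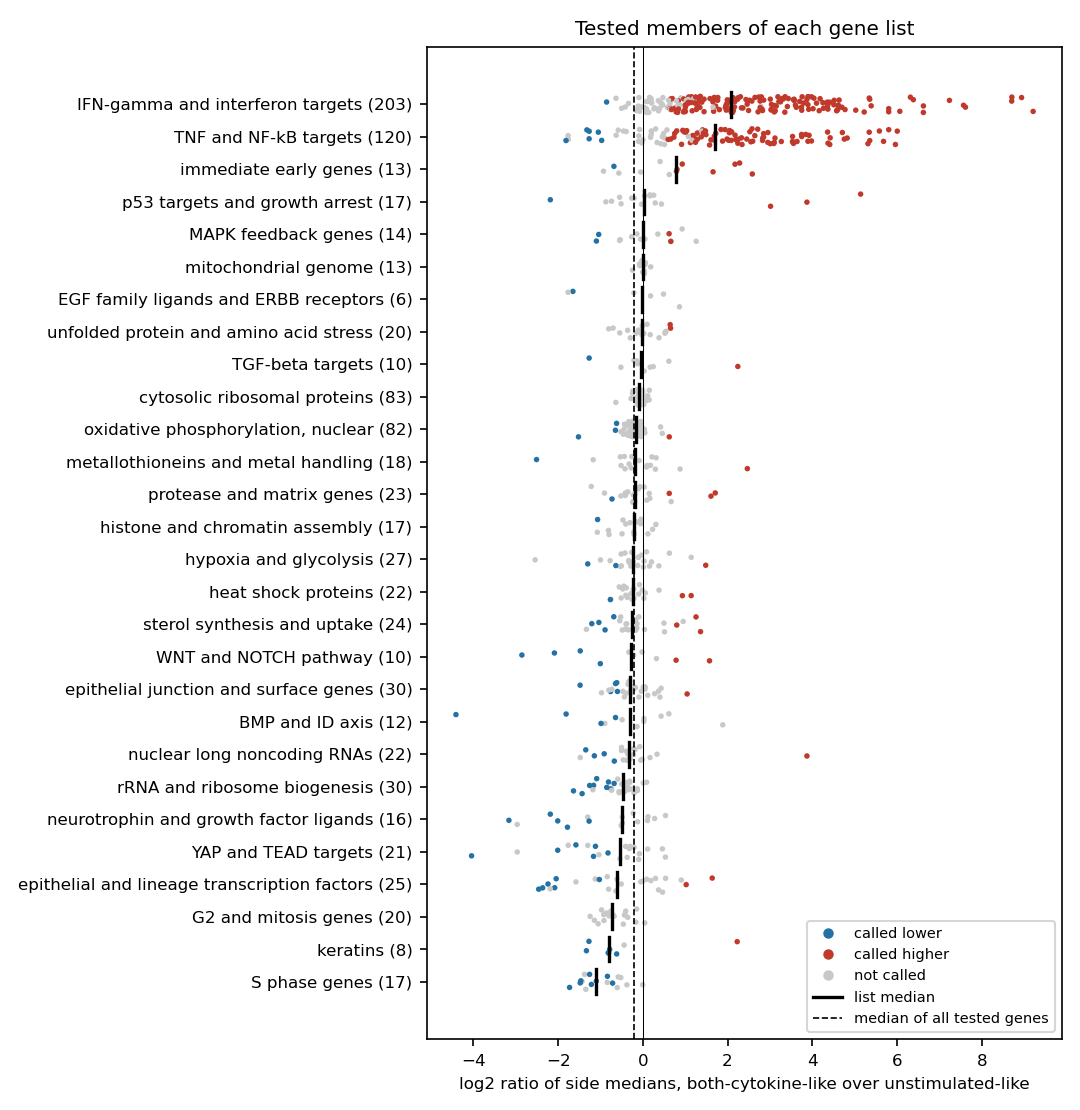
Log2 ratio of side medians for every tested member of each list, with called members coloured and a bar at the list median. The dashed line is the median of all tested genes, -0.21, and the lists run from S phase genes at -1.10 to the interferon list at 2.08.

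The 20 strongest risers outside the interferon and NF-kB lists include regulators of growth arrest and cell death. CDKN1A, the cell cycle inhibitor p21, lay at 1.35, 1.23, 1.88, 1.77 and 1.67 against 0.207, 0.327, 0.154, 0.356 and 0.1504, 8.09-fold higher. BBC3, the pro-apoptotic protein PUMA, lay at 0.764, 1.01, 0.817, 0.778 and 0.775 against 0.0207, 0.0107, 0.02204, 0.0652 and 0.0324, or 35.3-fold. Its unstimulated-like median, 0.02204 in HTO3+HTO7, is below the level of 3 counts in that sample, 0.0331. The size of this fold therefore rests on few molecules. The remaining samples lay between the sides for CDKN1A and BBC3, at 0.582 to 0.893 and 0.144 to 0.263. Both genes are p53 targets. Of the 17 tested members of that list 3 were higher and 1 lower, beside 7.55% higher and 12.4% lower over all tested genes. The third higher member was the death receptor FAS, which is also on the interferon list. FAS was 14.7-fold higher (0.355 to 0.477 against 0.01102 to 0.0712). MDM2, a well-known p53 target, was not called, with 0.247 to 0.548 against 0.231 to 0.421. The lower member was GDF15, given above. The list's median log2 ratio was 0.04.

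**Figure D4:**
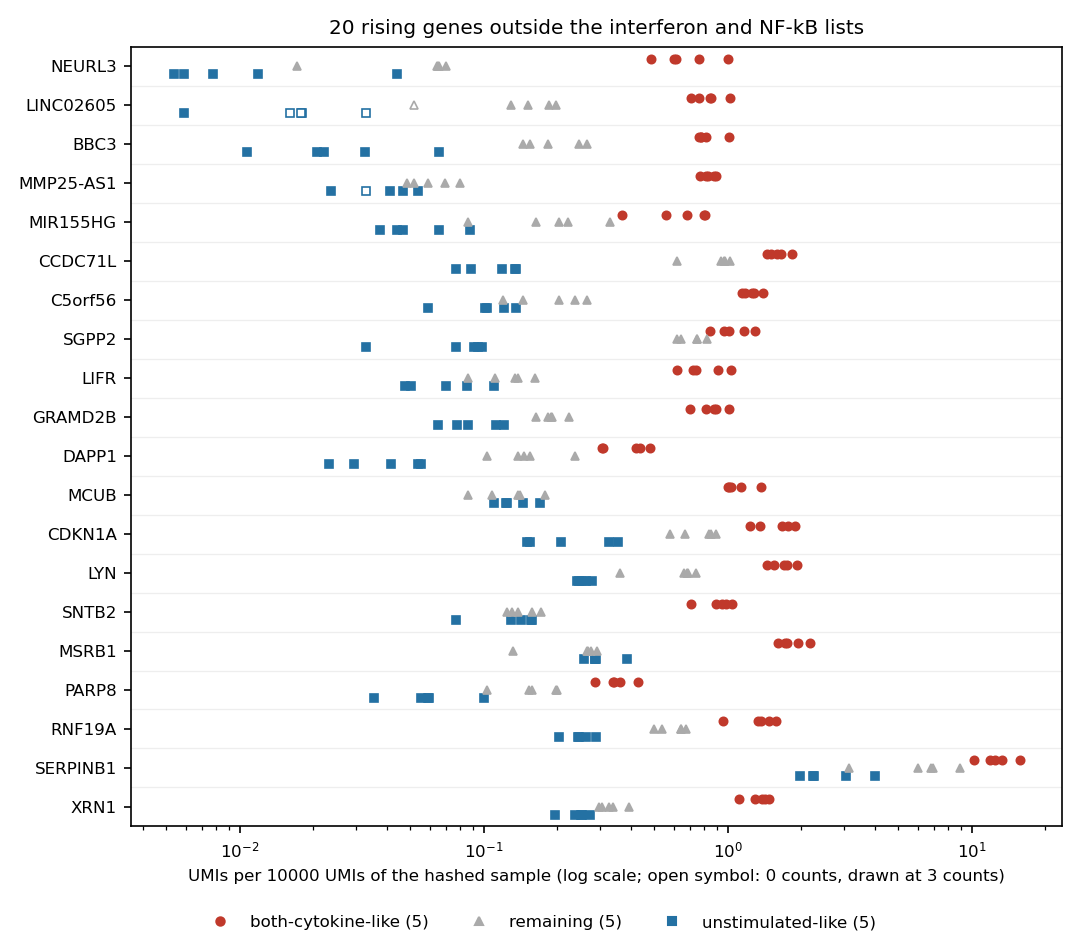
Level of the 20 most strongly higher genes outside the interferon and NF-kB lists in each hashed sample, in UMIs per 10000 UMIs on a log axis. Open symbols are samples with 0 counts, drawn at the level of 3 counts, and the remaining 5 samples (triangles) lie near the unstimulated-like samples for MCUB and SNTB2 and between the sides for CDKN1A and CCDC71L.

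Further risers are given by their known roles and not from a fixed list. NEURL3, an E3 ubiquitin ligase, lay at 0.484, 0.614, 0.601, 0.762 and 1.002 against 0.00774, 0.00536, 0.0441, 0.0119 and 0.005899. It had 39 to 229 UMIs per sample on the high side and 1 to 4 on the low side. Its low level is therefore uncertain, with an exact 95% Poisson interval of 0.001597 to 0.0226 in HTO2+HTO5, and the closest samples differed 10.98-fold. LIFR, the receptor of leukaemia inhibitory factor, lay at 0.914, 1.03, 0.617, 0.7402 and 0.721 against 0.0852, 0.0697, 0.1102, 0.0475 and 0.0501, 10.6-fold higher. LYN, a kinase of the SRC family, lay at 1.75, 1.92, 1.54, 1.44 and 1.697 against 0.276, 0.241, 0.253, 0.261 and 0.245, or 6.69-fold. DAPP1, an adaptor that binds phosphoinositides, and RNF19A, an E3 ubiquitin ligase, were 10.1-fold and 5.58-fold higher.

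Enzymes and inhibitors followed. SGPP2, a phosphatase of sphingosine 1-phosphate, lay at 1.17, 1.296, 0.848, 1.01 and 0.962 against 0.0981, 0.0912, 0.0331, 0.0949 and 0.0767, 11.1-fold higher. MSRB1, a reductase of oxidised methionine, lay at 1.94, 1.602, 1.71, 1.75 and 2.18 against 0.385, 0.257, 0.286, 0.285 and 0.289, or 6.104-fold. SERPINB1, an inhibitor of neutrophil proteases, lay at 12.5, 15.7, 10.2, 11.8 and 13.3 against 3.05, 2.26, 1.97, 2.24 and 4.01. XRN1, the exonuclease that degrades decapped mRNA, lay at 1.11 to 1.47 against 0.196 to 0.271, 5.48-fold higher. MCUB, which dampens mitochondrial calcium uptake, was 8.29-fold higher, and its remaining samples of 0.0859 to 0.177 overlapped the unstimulated-like range. PARP8, GRAMD2B, SNTB2 and CCDC71L were 5.81-fold, 10.3-fold, 6.66-fold and 13.4-fold higher.

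Long noncoding RNAs made up 4 of the 20 risers. LINC02605 lay at 0.854, 1.02, 0.709, 0.762 and 0.842, with 0 UMIs in 3 unstimulated-like samples and 7 and 2 UMIs in HTO2+HTO5 and HTO4+HTO10, so no fold is given. MIR155HG, the host transcript of a microRNA of immune activation, lay at 0.5602, 0.802, 0.37, 0.681 and 0.802 against 0.0465, 0.0375, 0.0882, 0.0652 and 0.0442, 14.7-fold higher. MMP25-AS1 was 20.1-fold higher and C5orf56 12.2-fold. C5orf56 overlaps IRF1 on the other strand and MMP25-AS1 is antisense to MMP25. The strand of counting is not stated in the sources used here, and the reads of each pair were not examined. In the list of nuclear long noncoding RNAs MIR155HG was the only higher member of 22, and 4 were lower. Over all tested genes 7.55% were higher and 12.4% lower, and both counts are near these shares. KCNQ1OT1, the antisense transcript of an imprinted locus, was 2.55-fold lower (0.794 to 1.22 against 1.75 to 2.47), and OIP5-AS1, SNHG1 and DANCR 2.21-fold, 1.88-fold and 1.59-fold.

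The promoters of MIR155HG and SGPP2 are shown because these risers lie outside the lists and hold the motifs of the list genes. In MIR155HG the capitals are the interferon-stimulated response element core, at chr21:25561907-25561966, plus strand. In SGPP2 they are a match to the consensus of NF-kB binding known as kappaB, at chr2:222423824-222423883, plus strand (RefSeq, GRCh38.p14).
MIR155HG: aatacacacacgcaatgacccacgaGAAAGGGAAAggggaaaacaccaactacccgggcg
SGPP2: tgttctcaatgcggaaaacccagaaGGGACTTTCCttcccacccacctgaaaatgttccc

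Immediate early genes, which respond to many stimuli, were higher in 7 of 13 tested members and lower in 1, or 7 and 0 on both other scales. Their median log2 ratio was 0.79. On the main scale 7.55% of all tested genes were higher and 12.4% lower. ZFP36, which destabilises AU-rich mRNAs, lay at 0.289, 0.343, 0.1696, 0.225 and 0.347 against 0.0491, 0.0483, 0.0441, 0.0415 and 0.0531, 5.995-fold higher. ATF3, a stress factor, and JUNB, an AP-1 subunit, were 4.87-fold and 4.52-fold higher. CEBPB, a basic leucine zipper factor, was 3.15-fold higher (0.684 to 0.922 against 0.208 to 0.441). JUND was the member that was lower, 1.61-fold. The summed list lay at 13.3 to 15.6 against 8.79 to 9.45, and the remaining samples, at 13.8 to 15.02, lay with the both-cytokine-like samples.

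Matrix and protease genes changed in single members. LAMA3, a laminin chain of epithelial basement membranes, was 3.27-fold higher (0.558 to 1.02 against 0.134 to 0.264), whereas LAMA5 was 1.66-fold lower, a call lost on both other scales. CTSL, a lysosomal protease, lay at 5.47, 4.31, 4.36, 4.31 and 5.49 against 1.87, 1.298, 1.66, 1.13 and 1.43, 3.05-fold higher. ADAM17, the sheddase that releases TNF, was 1.54-fold higher (0.674 to 0.855 against 0.403 to 0.607). Of TGF-beta targets, PMEPA1 was 2.41-fold lower, and it is also on the NF-kB list.

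Stress and metabolic lists were called in few members. The heat shock list had 2 higher, the co-chaperones DNAJA1 (9.93, 8.38, 8.602, 8.59 and 9.205 against 3.901, 3.83, 4.63, 4.02 and 3.66) and DNAJB6, and 1 lower, DNAJB1, of 22 tested. ATF5 and XBP1, factors of the stress response to unfolded proteins, were 1.57-fold and 1.56-fold higher, and the other 18 tested members of their list were not called. Of 27 hypoxia and glycolysis genes, SLC2A1 and the lactate exporter SLC16A3 were lower and the hexokinase HK1 was higher (2.798-fold, 0.879 to 1.1 against 0.253 to 0.484). VEGFA, an angiogenic factor, was not called, with medians of 0.441 and 0.629. Of 24 tested genes of sterol and lipid synthesis, 4 were lower and 3 higher, beside 12.4% and 7.55% over all tested genes. MVD and INSIG1 were among the higher members (2.57-fold and 2.39-fold). The fatty acid enzymes FASN and ELOVL6 were lower (2.31-fold and 2.05-fold), as was FDFT1, and on the scale of the median of ratios this list had 3 lower and 5 higher members. Of 82 nuclear genes of oxidative phosphorylation and its assembly, 3 were lower and 1, SDHA, higher, or 1 and 3 when scaled by the median of ratios. Of the 13 mitochondrial genes 0 were called.

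Within the set-aside lists a few members went against the rest. On the interferon list 155 of 203 tested members were higher and 1 lower, the purine enzyme PNP. On the NF-kB list 86 of 120 were higher and 6 lower. TSC22D1, a leucine zipper factor, was 3.52-fold lower (0.965 to 1.68 against 2.74 to 4.65). IL18, an inflammatory cytokine, was 2.499-fold lower (0.324 to 0.508 against 0.783 to 1.18). TNFRSF11B, the decoy receptor osteoprotegerin, BCL2L1, an anti-apoptotic protein, HES1, a NOTCH target, and PMEPA1 were 2.41-fold, 2.07-fold, 1.96-fold and 2.41-fold lower. The sides were chosen on such list genes, so these counts describe the choice.

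Positions of the remaining samples were counted for called genes only and not over all tested genes. The call rule already sets the sides of these genes apart, so a place between them follows partly from that choice. The median of the remaining 5 hashed samples was between the side medians for 879 of the 930 lower genes. All 5 lay above every both-cytokine-like sample for 386 and below every unstimulated-like sample for 194, and they stood apart from both sides for 69. For the 340 higher genes outside the lists the median was between for 263. All 5 lay below every both-cytokine-like sample for 212 and above every unstimulated-like sample for 124, and apart from both for 53. BMP4, BDNF, B3GALT5 and NR2F2 were among the lower genes for which the remaining samples stood apart from both sides. MCUB and MSRB1 showed another pattern. Their remaining samples, at 0.0859 to 0.177 and 0.131 to 0.292, overlapped the unstimulated-like ranges of 0.1102 to 0.1704 and 0.257 to 0.385.

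Shares of cells with a UMI were compared after each cell was thinned to 5000 UMIs, which left out 64 and 56 shallower cells of the sides. The shares did not overlap between the sides, in the direction of the level, for 24 of the 25 strongest falls and all 20 risers. Of the 120 genes chosen by rule this held for 97, and not for abundant genes such as LGALS3, EZR, KRT7, KRT8, KRT18 and KRT20. All 120 were named for levels that lay apart in the same kept cells, so agreement of shares follows largely from that choice. Shares were not computed over all tested genes. ATF5, called higher by level, had a median share of 20.3% against 20.6%. BMP4 was detected in 1.69% to 4.86% of cells in the both-cytokine-like samples and 39.4% to 45.9% in the unstimulated-like samples. Without thinning the shares were 3.12% to 11.7% and 50.3% to 62.8%. BDNF was detected in 1.69% to 3.12% against 14.8% to 25.4%, and NR2F2 in 13.6% to 21.5% against 48.9% to 61.9%. Among risers, CDKN1A was detected in 40.6% to 55.9% against 5.56% to 13.5% and BBC3 in 31.5% to 35.8% against 0% to 4.76%. KRT17 was detected in only 18.99% to 25.4% of cells where it was higher, against 5.12% to 11.9%. Its cells with a UMI held 4.05 UMIs each (median of samples) against 2.2. KRT19 was detected in most cells on both sides, 69.5% to 82.6% and 90.5% to 98.4%, and cells with a UMI held 4.72 against 8.86. The pool held no other cell type to serve as a blank, so the part of free RNA in these shares is not known. CXCL11 gives a sense of low shares, at 0.794% to 2.22% in the unstimulated-like samples beside 75.5% to 90.5%.

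Promoters were searched for the motifs shown above and for a STAT motif. Windows ran from 250 bases before to 50 after the start, were searched on both strands, and were found in RefSeq for 6046 of the 7482 genes. The response element core shown for CD274 and MIR155HG was in 1.51% of 729 promoters of lower genes (11), 4.09% of 269 of higher genes outside the lists (11), 38.9% of 113 of higher interferon list genes and 3.27% of all. The kappaB consensus shown for SGPP2 was in 11.4%, 15.6% and 12.9% of lower, higher outside and all promoters, and in 40.4% of 57 of higher genes on the NF-kB list alone. The letters GGAATG shown for ANKRD1 and DKK1 were in 12.9% of lower, 13.8% of higher outside and 10.6% of all promoters. The STAT motif TTCNNNGAA was in 5.49%, 8.92% and 6.60%. A match is a description of letters and not a binding site.

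Transcript ends were searched for letters of unstable mRNAs. The letters TATTTAT, found in AU-rich elements, were in the last 1000 bases of 22.4% of 888 lower genes, 29.5% of 325 higher genes outside the lists and 21.3% of 7308 tested genes. Of the higher genes outside the lists, 25 of 339 with coordinates (7.38%) lay within 100 kb of a higher list gene. For lower genes it was 30 of 922 (3.25%), and for all tested genes outside the lists 337 of 7173 (4.70%).

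The same contrast was read in barcodes that the choice of cells had left out. These were the 534 barcodes of the 10 hashed samples with at least 1000 genes and over 20% mitochondrial UMIs, which hold 4379145 UMIs. They come from the same hashed samples, so they share tumours and treatment with the kept cells, and a high mitochondrial share can mark damaged cells. All 25 strongest falls had a ratio below 1 there, and 12 of them had no overlap between sides. All 20 strongest risers had a ratio above 1, 16 with no overlap. These genes were chosen as the most extreme in kept cells of the same hashed samples. Neither direction nor overlap alone was counted over all tested genes in these barcodes, so these counts have no baseline. BMP4 lay at 0.0452 to 0.228 against 0.652 to 1.603 in these barcodes, DKK1 at 0.114 to 0.392 against 0.766 to 1.61 and BBC3 at 0.196 to 0.742 against 0 to 0.0343. Of all 930 lower genes, 877 had a ratio below 1 there, and of the 340 higher genes outside the lists 332 had a ratio above 1. The median log2 ratio over all 7482 tested genes was -0.13 in these barcodes, so ratios below 1 were common. Fewer genes met the full call rule: of 6967 genes above the level filter there, 200 were lower and 293 higher. Calls were repeated for 142 of the 930 lower genes and 123 of the 340 higher genes outside the lists. Of the 120 genes chosen by rule, GMNN was the exception in direction, with a log2 ratio of 0.0091.

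**Figure D5:**
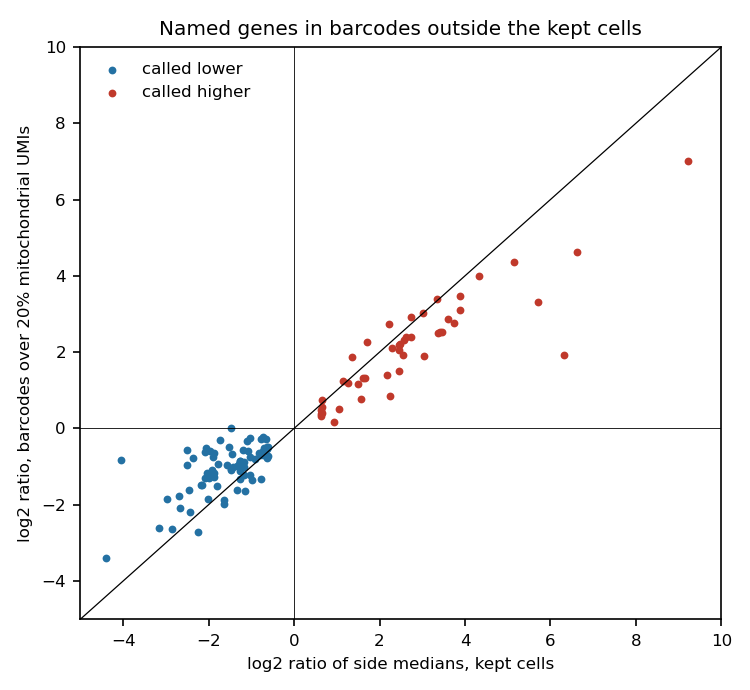
Log2 ratio of side medians for the 120 genes chosen by rule, in kept cells (horizontal axis) and in 534 barcodes over 20% mitochondrial UMIs (vertical axis), with the line of equal values. Points for 119 of 120 genes lie in the same direction in both.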

How the data were processed

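The authors deposited a single matrix of raw UMI counts, with 36601 genes and 10 hashtags as its rows and 5269 barcodes as its columns. Cell Ranger 5.0.1 wrote the matrix per the file headers, while the version in the submitters' processing notes is 2.1.1, with GRCh38 as the genome build. The calling of cells among barcodes is not stated in these sources. The libraries are 10x Genomics 3' gene expression and hashtag libraries of 1 pool, per the labels' protocols, so that mostly transcript ends were counted and UMIs collapse PCR copies.

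Counts were summed per hashtag pair over kept cells and given per 10000 UMIs. Of 3538 kept cells, 3144 had a clear pair. The others, which can hold cells of several samples, were left out. No doublet caller was run, so droplets that hold cells of the same hashed sample remain. Members, lists and the call rule were chosen with earlier results of these data known. Genes were named by rule: the 25 lowest ratios of medians and the 20 highest ratios outside the interferon and NF-kB lists among called genes with a mean level of at least 0.2, the 10 largest absolute falls, up to 4 called members per list, and the markers. Further genes that complete a count were chosen after their values were seen. Some genes that the rule names are not reported here. Ratios of gene medians take samples of unequal depth equally, and the low side of a falling gene has the larger counting error. Alternatives were other scalings, level filters, cell filters, ratios, a mean over cells and leaving out each hashed sample. Python 3.11.15, numpy 2.4.6, scipy 1.17.1 and pandas 2.3.3 were used. Gene positions are from GENCODE 29. No test across samples was run, because the sides were chosen from expression of the same cells.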

Additional observations from a re-analysis of the deposited data

Results flagged for a closer look

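In groups of 5 hashed samples, 17 values of 292 groups examined (5.82%) stood apart from the other 4 by more than Dixon's limit, where chance gives about 1 in 20. In unstimulated-like samples, GDF15 was 0.297 in HTO4+HTO7 (others 0.472 to 0.528) and NEURL3 was 0.0441 in HTO3+HTO7 (others 0.00536 to 0.0119). MSRB1 was 0.385 in HTO2+HTO5 (others 0.257 to 0.289) and ERRFI1 was 2.63 in HTO4+HTO10 (others 0.961 to 1.24). SDHA was 0.540 in HTO3+HTO7 (others 0.653 to 0.684) and CXCL11 was 0.155 in HTO2+HTO5 (others 0.0110 to 0.0354). The summed ribosome biogenesis list was 60.1 in HTO4+HTO10 (others 69.6 to 72.9).

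In both-cytokine-like samples, HTO4+HTO9 stood apart for SLC30A1 at 0.120 (others 0.0462 to 0.0671), PKP2 at 0.0267 (0.0912 to 0.104) and ELOVL6 at 0.0534 (0.187 to 0.216). HTO3+HTO6 stood apart for BBC3 at 1.01 (0.764 to 0.817), SLC16A3 at 1.45 (0.922 to 1.07) and ADAM17 at 0.674 (0.817 to 0.855). HTO3+HTO9 did so for GMNN at 0.0462 (0.106 to 0.123) and KCNQ1OT1 at 1.22 (0.794 to 0.882). DNAJB1 was 0.514 in HTO2+HTO7 (others 0.343 to 0.374). The summed list of p53 targets was 13.01 in HTO4+HTO6 (others 11.6 to 11.97). Of these, HTO3+HTO7, HTO3+HTO9 and HTO4+HTO9 are the samples of under 100 cells.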

How the results depend on the processing

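The counts of 930 lower genes, 565 higher genes and 340 higher genes outside the lists moved with several settings. With a level filter of 0.5 they were 239, 276 and 140, and with no filter 1435 genes were lower. Scaled by the median of ratios, 454 were lower and 530 higher outside the lists, and on the total without mitochondrial and list genes 598 were lower. With a ratio of 2, 347 were lower and 204 higher outside the lists. In barcodes over 20% mitochondrial UMIs, which hold fewer UMIs, the counts were 200, 293 and 146, and GMNN had a log2 ratio of 0.0091 in place of -1.48. After thinning all samples to the smallest total, an alternative chosen after seeing the data, 606 were lower. Without the 3 smallest samples, also chosen after seeing the data, 1371 genes were lower and 630 higher. Leaving out each hashed sample in turn gave 893 to 1097 lower, 561 to 611 higher and 338 to 376 higher outside the lists. A hashtag ratio of 10, a limit of 15% mitochondrial UMIs, leaving out cycling cells and a mean over cells each kept the counts within 1.5 times. Across the 120 named genes and all settings, 2571 ratios moved by less than the spread between samples, 188 by more, and 1 changed sign. The level filters and the ratio of 2 act on calls only, so all 120 ratios stay the same there by construction. In barcodes over 20% mitochondrial UMIs, 80 ratios moved by more, 39 by less, and 1 changed sign. No paired analysis was possible because no label tells which hashed samples share a tumour. Depth limits the low side of falling genes, where a count of 3 in HTO3+HTO9 is a level of 0.0462.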
